A study of Homo sapiens with 4 samples.

Results

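The 10 genes described here encode subunits that set apart the forms of the BAF chromatin remodeller: ARID1A, ARID1B, DPF1, DPF2, DPF3, BRD9, BICRA, BICRAL, SS18 and ACTL6B. They were chosen by symbol, and each had 1 row among the 58735 genes of the count table. The RNA came from HEK293T, a human embryonic kidney line that carries the SV40 large T antigen, and in all libraries the cells had PBRM1 disrupted by CRISPR. The cells received a plasmid for GFP-tagged PBRM1 and were harvested 48 h later. The plasmid coded for P1048R, T1202K or C1233W, mutants named for changes in the BAH (bromo-adjacent homology) domains, or for the unaltered protein (WT). There was 1 library per construct, 4 in all, so nothing below has a replicate check, and every interval covers counting error only. PBRM1 here is transcribed from a transfected plasmid, the sources do not say whether the edited cells were 1 clone, and cells without a plasmid were not analysed here.

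Mammalian SWI/SNF remodellers use ATP to slide or evict nucleosomes and come in 3 assemblies built on a shared core. Canonical BAF contains ARID1A or ARID1B and a DPF protein, non-canonical BAF contains BRD9 with BICRA (GLTSCR1) or BICRAL (GLTSCR1L) in place of an ARID subunit, and PBAF contains PBRM1, ARID2, BRD7 and PHF10. As neurons leave the cell cycle, PHF10 or DPF2, ACTL6A and SS18 are exchanged for DPF1 or DPF3, ACTL6B and SS18L1, which gives neuronal BAF. None of the 10 genes encodes a subunit found in PBAF alone. The comparison therefore asks whether transcripts of the sister complexes differ between cells given mutant and WT PBRM1.

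Total counts were 11205322 in P1048R, 10993748 in T1202K, 10348552 in C1233W and 10246250 in WT. Levels are given in CPM, read counts over a library size adjusted with TMM (trimmed mean of M values), and carry exact 95% Poisson intervals. The transfected gene was at 8805 CPM in P1048R, 15262 in T1202K, 60509 in C1233W and 22768 in WT, so its amount differed between the libraries along with the construct. Gene counts cannot separate plasmid from genomic PBRM1 reads and show neither the edit nor the mutations. Mitochondrial genes took 5.63%, 5.53% and 6.23% of counts in P1048R, T1202K and C1233W, against 8.48% in WT. The part of PBRM1 dose and of the mitochondrial share in the differences below was not tested. Of 8 genes chosen as marks of this line, all reached 1 CPM in every library, whereas CD3E and COL1A2 had 0 reads in each and none of 3 endothelial markers reached 1 CPM.

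Set against WT, with TMM scaling and leaving aside the almost silent ACTL6B, the highest ratios were those of the pair that defines non-canonical BAF, BICRAL and BICRA, and of the neuronal-type subunit DPF1. DPF2 was higher in each mutant as well. SS18, BRD9 and ARID1A were lower in all 3 mutants, BRD9 in C1233W by as much as DPF1 was higher there, and ARID1B and DPF3 had an interval that reached 0 in at least 1 mutant. Ratios below are log2 values of mutant over WT after adding 0.5 to each count, with 95% counting intervals, and a gene passed the size rule when it was at least 2-fold apart with an interval excluding 0.

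In P1048R, 2 of the 10 genes passed the rule, BICRAL and ACTL6B, both higher, where 7.5% of the 16262 genes tested passed it in either direction and 4.48% as higher. The same 2 passed in T1202K, again as higher, against 5.15% of all genes in either direction and 2.95% as higher. None passed in C1233W, where 5.4% of all genes did, 4.19% as higher. ACTL6B entered the tested set only through its 1.32 CPM in T1202K, so its difference was favoured by the filter. Without it, 1 of 9 passed in P1048R and in T1202K, and the medians of the 9 ratios were 0.45, 0.32 and 0.13 in P1048R, T1202K and C1233W, beside −0.04, −0.01 and −0.01 for all genes tested. No member passed the rule against WT in all 3 mutants at once, as 1.25% of genes did upward in the mutants and 0.332% downward; ACTL6B was over 2-fold higher in each, but its interval reached 0 in C1233W.

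By a looser measure, the intervals of the ratio excluded 0 in the same direction in all 3 mutants for 4 genes that were higher, DPF1, DPF2, BICRA and BICRAL, and for 3 that were lower, ARID1A, BRD9 and SS18. Of all genes tested, 10.4% were higher and 13.8% lower by this measure. With a minimum of 5 CPM in 1 library these shares were 13.1% and 17.8%, and the same members counted. The 3 ratios share the WT library, so a deviation of that library alone would appear in each of them. Scaling matters to the lower group: on total counts the median of all genes moved to 0.19, 0.17 and 0.13 in P1048R, T1202K and C1233W, the 4 higher genes stayed, and none of the members was lower by this measure, where 19.0% of all genes were higher and 5.91% lower. On that scaling 84.4%, 78.5% and 88.3% of all genes past the size rule were higher in the mutant, against 59.7%, 57.2% and 77.6% with TMM.

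**Figure D1:**
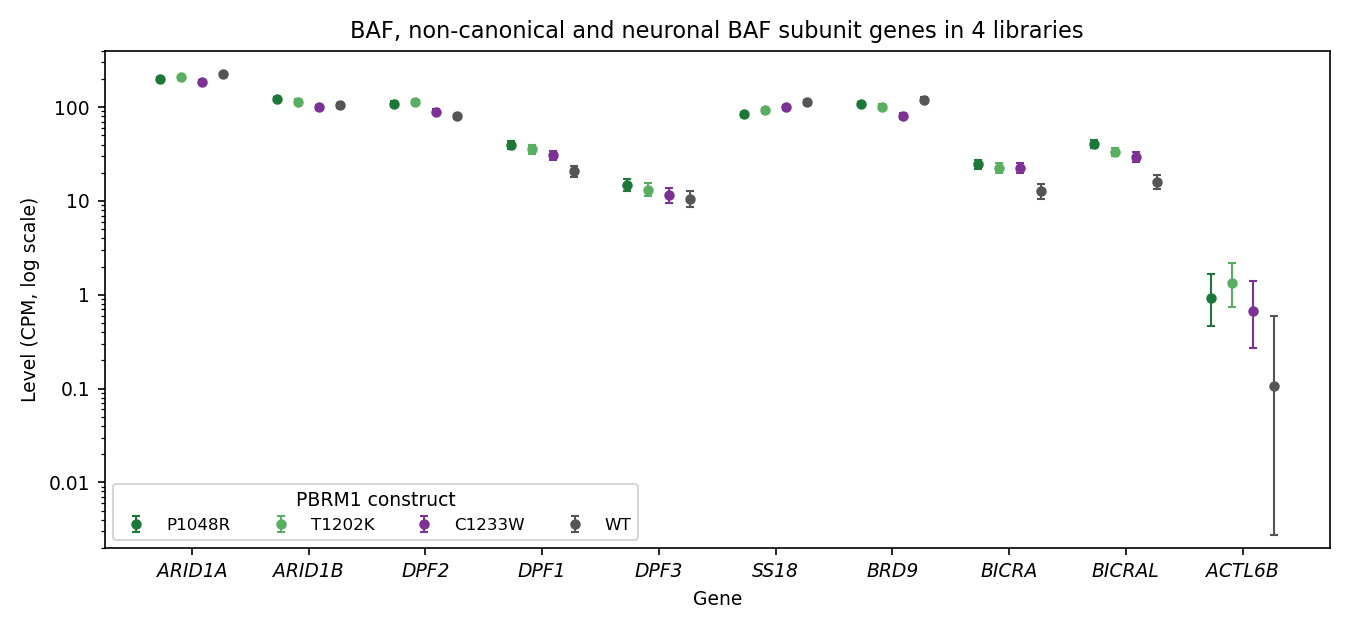
Level of each of the 10 genes in the 4 libraries, in CPM on a log scale, with exact 95% Poisson intervals as bars. DPF1, BICRA and BICRAL sit lowest in WT, SS18 sits highest in WT, and ACTL6B lies near or below 1 CPM throughout.

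BICRAL, on the plus strand of chromosome 6 (42746958 to 42868560, GRCh38), is a paralog of BICRA that can take its place in non-canonical BAF. It had 485 reads in P1048R, 375 in T1202K and 304 in C1233W, against 150 in WT, or 40.6 (37.1 to 44.4), 33.1 (29.8 to 36.6) and 29.4 (26.2 to 32.9) CPM against 16.0 (13.6 to 18.8). All 3 mutant intervals lay above that of WT. The log2 ratios were 1.34 (1.07 to 1.61), 1.04 (0.77 to 1.33) and 0.87 (0.59 to 1.17) in P1048R, T1202K and C1233W. The first placed BICRAL above 97.4% of the genes tested, the second above 96.3% and the third above 92.4%. Among the mutants, P1048R was above C1233W by a log2 ratio whose interval excluded 0 (C1233W over P1048R −0.47, −0.68 to −0.26) and T1202K lay between.

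BICRA, on the plus strand of chromosome 19 (47608196 to 47703277), encodes a defining subunit of non-canonical BAF. It had 294, 253 and 232 reads in P1048R, T1202K and C1233W, against 118 in WT. These were 24.6 (21.9 to 27.6), 22.3 (19.7 to 25.3) and 22.4 (19.6 to 25.5) CPM against 12.6 (10.5 to 15.1). The mutants were close to each other and all above WT, with log2 ratios of 0.96 (0.65 to 1.28), 0.82 (0.50 to 1.15) and 0.83 (0.50 to 1.16) and folds of 1.95, 1.77 and 1.77. BICRA passed the size rule in P1048R with DESeq2 size factors, at 1.002, and on total counts, at 1.18. Its longest transcript holds 68.6% GC, beside a median of 48.0% over the genes tested, and with the trend of the ratios on GC content and length removed they dropped to 0.61, 0.32 and 0.43. For BICRAL, at 44.0% GC, the same step left 1.36, 1.08 and 0.87.

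BRD9, the bromodomain protein of the same complex, lies on the minus strand of chromosome 5 (850291 to 892824). It was at 108 CPM in P1048R, 101 in T1202K and 81.1 in C1233W, against 120 in WT, and so lay on the other side of WT from its partners. The log2 ratios were −0.16 (−0.27 to −0.04), −0.25 (−0.37 to −0.13) and −0.57 (−0.70 to −0.43), and C1233W was also below P1048R, by −0.41 (−0.54 to −0.28). On total counts the P1048R ratio turned to 0.07 and the T1202K ratio shrank to −0.07. BRD9 exons overlap 182 bases of TRIP13 on the opposite strand and 222 bases of ZDHHC11 on its own strand, and no source used here gives the strand setting of the counting. TRIP13 was at 173, 195 and 127 CPM in P1048R, T1202K and C1233W, against 237 in WT, with its lowest level in C1233W as for BRD9. ZDHHC11 had 270, 224 and 212 reads in the mutants, against 254 in WT, or 22.6, 19.8 and 20.5 CPM against 27.2. The part of either gene in the BRD9 counts was not tested.

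Summed, BICRA and BICRAL had 779, 628 and 536 reads in P1048R, T1202K and C1233W, against 268 in WT. The log2 ratios of the sum were 1.18 (0.98 to 1.39), 0.95 (0.74 to 1.16) and 0.85 (0.64 to 1.07). With TMM scaling the pair thus parted from BRD9 in every mutant library, the sum being higher and BRD9 lower than in WT. On total counts BRD9 was at 0.07 in P1048R and at only −0.07 in T1202K. By interval, BRD9 no longer counted as lower in every mutant on total counts or with DESeq2 size factors.

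**Figure D2:**
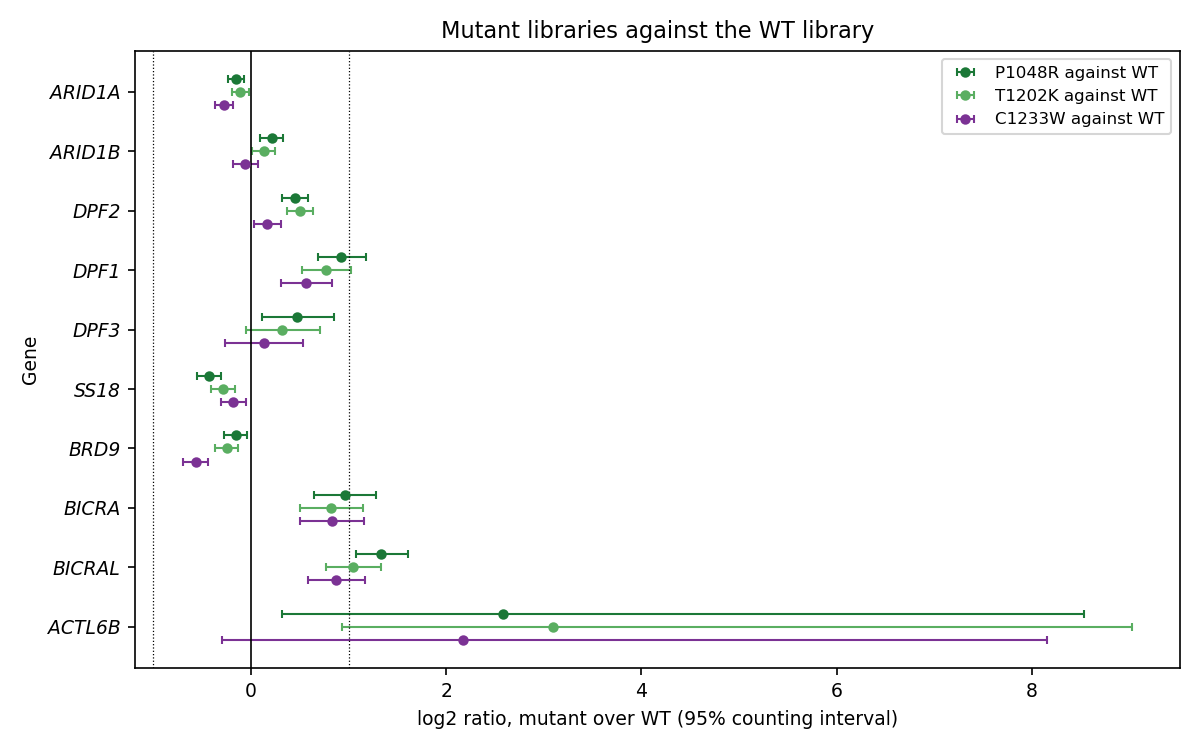
The log2 ratio of each mutant library over WT for the 10 genes, with 95% counting intervals as bars and dotted lines at 2-fold. BICRAL passes 2-fold in P1048R and T1202K, the P1048R values of BICRA and DPF1 lie just below it, and the bars of ACTL6B span most of the axis because WT held 1 read.

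The starts of the genes with the largest ratios among those with over 100 reads per library are shown for their base composition and motifs; the GC trend above concerned whole transcripts, not these windows. RefSeq promoters on GRCh38.p14, reaching from 250 bases before to 50 after an annotated start, were found for 10 of the 10 genes. DPF1 has 1 such window, BICRA has 2 and BICRAL has 3, of which the first 2 are printed; gene counts do not tell which start was used. Capitals mark the GC box GGGCGG and the CCAAT box on either strand, in windows written 5′ to 3′ along the gene.
DPF1, only window (chr19:38229646-38229945, minus strand): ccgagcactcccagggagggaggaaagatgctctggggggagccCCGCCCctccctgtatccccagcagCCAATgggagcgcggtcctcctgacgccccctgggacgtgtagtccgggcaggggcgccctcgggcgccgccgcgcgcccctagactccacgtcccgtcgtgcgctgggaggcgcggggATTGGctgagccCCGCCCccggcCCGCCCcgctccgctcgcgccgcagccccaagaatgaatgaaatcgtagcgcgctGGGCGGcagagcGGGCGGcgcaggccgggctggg
BICRA, first window (chr19:47607946-47608245, plus strand): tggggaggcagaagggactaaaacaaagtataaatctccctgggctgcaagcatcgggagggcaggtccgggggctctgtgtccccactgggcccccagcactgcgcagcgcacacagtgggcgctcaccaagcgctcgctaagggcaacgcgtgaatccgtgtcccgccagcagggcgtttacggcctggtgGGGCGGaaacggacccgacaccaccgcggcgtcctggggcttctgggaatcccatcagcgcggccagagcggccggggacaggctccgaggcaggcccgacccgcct
BICRA, second window (chr19:47608884-47609183, plus strand): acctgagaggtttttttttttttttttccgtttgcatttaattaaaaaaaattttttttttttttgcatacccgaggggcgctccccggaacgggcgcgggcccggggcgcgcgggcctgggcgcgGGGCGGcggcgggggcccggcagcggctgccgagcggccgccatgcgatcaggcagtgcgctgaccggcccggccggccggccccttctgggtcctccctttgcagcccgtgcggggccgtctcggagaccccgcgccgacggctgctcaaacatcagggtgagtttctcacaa
BICRAL, first window (chr6:42746737-42747036, plus strand): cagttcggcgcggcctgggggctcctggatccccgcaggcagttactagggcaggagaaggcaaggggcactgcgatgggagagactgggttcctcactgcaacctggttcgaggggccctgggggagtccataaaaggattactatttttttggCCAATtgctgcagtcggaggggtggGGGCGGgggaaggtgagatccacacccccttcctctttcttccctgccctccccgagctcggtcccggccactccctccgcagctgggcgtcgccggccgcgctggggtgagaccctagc
BICRAL, second window (chr6:42781802-42782101, plus strand): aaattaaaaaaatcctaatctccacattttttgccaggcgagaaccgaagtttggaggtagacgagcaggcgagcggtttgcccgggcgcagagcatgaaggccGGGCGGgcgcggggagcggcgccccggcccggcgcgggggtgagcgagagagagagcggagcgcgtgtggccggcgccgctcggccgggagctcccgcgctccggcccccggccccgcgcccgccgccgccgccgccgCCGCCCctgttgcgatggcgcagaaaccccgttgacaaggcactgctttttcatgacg

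DPF1 held 5 GC boxes and 2 CCAAT boxes in 300 bases, at 75.3% GC. The BICRA windows held 1 GC box each, at 68.0% and 64.7% GC. The first BICRAL window held 1 box of each kind, at 65.3% GC, and the second 2 GC boxes, at 70.0% GC, whereas the third, not printed, held neither box, at 48.3% GC. Over all 35116 promoters of this length, 45.0% held a GC box and 34.6% a CCAAT box, with a median GC content of 58.7%. None of the 5 printed windows held the E-box CACGTG, the cAMP response element TGACGTCA, the AP-1 site TGANTCA or the letters CAGCACC, which form part of the site of the neuronal repressor REST; these stood in 7.26%, 1.85%, 7.71% and 7.75% of all promoters. The motifs were searched on both strands. DPF2, also higher in each mutant, held no GC box and 1 CCAAT box in its only window, at 67.7% GC. Among the genes lower in the mutants, the window of ARID1A held 3 GC boxes and those of BRD9 held 3 and 1, while those of SS18 held 1 and 0.

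ARID1A and ARID1B are alternative DNA-binding subunits of canonical BAF, and a complex holds one or the other. ARID1A, on chromosome 1 (26693236 to 26782110, plus strand), was the most abundant member, at 202 CPM in P1048R, 208 in T1202K and 185 in C1233W, against 224 in WT. Its log2 ratios were −0.15 (−0.24 to −0.07), −0.11 (−0.19 to −0.02) and −0.27 (−0.36 to −0.18). All 3 were small, and on total counts those of P1048R and T1202K turned to 0.07 and 0.07, under the all-gene medians of that scaling. ARID1B, on chromosome 6 (156776020 to 157210779, plus strand), was at 121, 114 and 100 CPM in P1048R, T1202K and C1233W, against 105 in WT. The P1048R library was higher by 0.22 (0.10 to 0.33) and T1202K by 0.13 (0.01 to 0.25), while C1233W had −0.06 (−0.19 to 0.07), which turned to 0.07 on total counts.

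The sum of both ARID1 genes hardly differed in P1048R, at −0.02 (−0.09 to 0.04), or in T1202K, at −0.03 (−0.10 to 0.04), and was lower in C1233W, at −0.20 (−0.27 to −0.13); on total counts these were 0.20, 0.15 and −0.07. Within the sum, the ARID1A share of reads was 62.4% (60.9 to 63.9) for P1048R, 64.5% (62.9 to 66.1) for T1202K and 64.9% (63.1 to 66.6) for C1233W, against 68.2% (66.5 to 69.8) for WT. These are exact Clopper-Pearson intervals of shares and do not depend on the scaling of the libraries. The ARID1A share was lower than in WT in each mutant, with a log2 difference of the ARID1A to ARID1B ratio of −0.37 (−0.51 to −0.22), −0.24 (−0.39 to −0.09) and −0.21 (−0.37 to −0.06) in P1048R, T1202K and C1233W. After removal of the GC and length trend the 3 differences were −0.42, −0.32 and −0.25, with intervals that again excluded 0.

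The DPF proteins carry paired PHD fingers that read acylated histone H3 tails; DPF2 is the widely expressed one, whereas DPF1 is largely neuronal and DPF3 is known from heart, muscle and neurons. DPF2, on chromosome 11 (65333754 to 65353249, plus strand), was at 109, 113 and 89.6 CPM in P1048R, T1202K and C1233W, against 79.7 in WT. Its ratios were 0.45 (0.32 to 0.58), 0.50 (0.37 to 0.64) and 0.17 (0.03 to 0.31). C1233W was below both other mutants, with ratios of −0.28 (−0.41 to −0.16) over P1048R and −0.34 (−0.46 to −0.21) over T1202K.

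DPF1, on the minus strand of chromosome 19 (38211006 to 38229714), had 472, 401 and 318 reads in P1048R, T1202K and C1233W, against 194 in WT. In CPM these were 39.5 (36.0 to 43.3), 35.4 (32.0 to 39.1) and 30.8 (27.5 to 34.3), against 20.8 (17.9 to 23.9), so the mutant intervals lay above that of WT. The log2 ratios were 0.93 (0.69 to 1.18), 0.77 (0.52 to 1.03) and 0.57 (0.31 to 0.83). On total counts the first was 1.15 and passed the size rule, and after removal of the GC and length trend the 3 were 0.76, 0.45 and 0.38, its longest transcript holding 62.6% GC. On the counts as deposited DPF1 stood above DPF2 in ratio: its share of their joint reads was 26.6% (24.6 to 28.7) for P1048R, 23.8% (21.8 to 26.0) for T1202K and 25.6% (23.2 to 28.1) for C1233W, against 20.7% (18.1 to 23.4) for WT. The difference of the log2 ratio of DPF1 to DPF2 had an interval excluding 0 in P1048R, at 0.48 (0.20 to 0.76), and in C1233W, at 0.40 (0.10 to 0.70), and reaching 0 in T1202K, at 0.26 (−0.02 to 0.55). After removal of the GC and length trend it excluded 0 in P1048R alone, at 0.31 (0.04 to 0.60), and was 0.02 (−0.26 to 0.31) for T1202K and 0.24 (−0.06 to 0.54) for C1233W.

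DPF3, on the minus strand of chromosome 14 (72619296 to 72894116), was the lowest of the family, at 14.7 (12.6 to 17.1) CPM for P1048R, 13.2 (11.2 to 15.5) for T1202K and 11.6 (9.62 to 13.9) for C1233W, against 10.6 (8.61 to 12.9) for WT. Its order over the libraries was that of DPF1, but the level intervals overlapped, and the ratio excluded 0 in P1048R alone, at 0.47 (0.11 to 0.85). Its share of reads with DPF2 was 11.9%, 10.5% and 11.5% in P1048R, T1202K and C1233W, against 11.7% in WT, and no difference was detectable at this depth. The 3 DPF genes together had log2 ratios of 0.56 (0.45 to 0.67), 0.54 (0.43 to 0.65) and 0.25 (0.13 to 0.37).

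SS18, on the minus strand of chromosome 18 (26016253 to 26091217), is a subunit of canonical and non-canonical BAF and the fusion partner of SSX in synovial sarcoma. It was at 83.9 (78.8 to 89.3) CPM for P1048R, 92.9 (87.4 to 98.7) for T1202K and 99.9 (93.9 to 106) for C1233W, against 113 (106 to 120) for WT. WT was thus highest, with ratios of −0.43 (−0.56 to −0.30), −0.28 (−0.41 to −0.16) and −0.18 (−0.30 to −0.05). On total counts they shrank to −0.21, −0.11 and −0.05. Its neuronal-type paralog SS18L1 (CREST) was at 26.8, 24.6 and 25.2 CPM in the mutants, against 27.1 in WT. The SS18 share of their joint reads was 75.8% in P1048R (73.4 to 78.1), 79.0% in T1202K and 79.9% in C1233W, against 80.7% in WT (78.4 to 82.8). The ratio of SS18 to SS18L1 differed from WT beyond counting error in P1048R, by −0.42 (−0.69 to −0.14), while the intervals of the other two mutants reached 0, with the same outcome once the GC and length trend was taken out.

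ACTL6B, on the minus strand of chromosome 7 (100643097 to 100656461), encodes the actin-related subunit of neuronal BAF and is a gene that REST keeps silent outside neurons. It had 11 reads in P1048R, 15 in T1202K and 7 in C1233W, against 1 in WT. The level intervals were 0.46 to 1.65, 0.74 to 2.18 and 0.27 to 1.40 CPM in the mutants and 0.0027 to 0.60 CPM in WT, so that only the T1202K interval cleared that of WT. The log2 ratios were 2.59 (0.32 to 8.53), 3.09 (0.93 to 9.03) and 2.18 (−0.30 to 8.16), and with 2 added to each count they dropped to 1.76, 2.23 and 1.44. A floor of 3 reads corresponded to 0.32 CPM in WT. Its counterpart in dividing cells, ACTL6A, was at 62.6, 61.7 and 57.9 CPM in the mutants, against 75.0 in WT, and ACTL6B supplied 1.45%, 2.10% and 1.16% of the joint reads of the pair, against 0.142% in WT. The share intervals were 0.727 to 2.58%, 1.18 to 3.44% and 0.466 to 2.37%, against 0.0036 to 0.791% in WT, so few reads separate them. The ratio of ACTL6B to ACTL6A differed from WT with an interval excluding 0 in each mutant, but in C1233W it reached 0 after removal of the GC and length trend (2.40, −0.09 to 8.38).

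DPF1, DPF3 and ACTL6B encode subunits of neuronal BAF, so neuronal markers were read beside them. The 9 markers summed to 57.5 CPM in P1048R, 55.3 in T1202K and 60.7 in C1233W, against 43.3 in WT, with 8, 7 and 8 of them at 1 CPM or more, against 7 in WT. SNAP25 was at 13.3, 11.0 and 8.42 CPM, against 5.24 in WT, whereas SYT1 was at 15.1, 14.0 and 21.4 CPM, against 15.5, and STMN2 had at most 4 reads. The 4 neural progenitor markers went the other way as a sum, with 56.3, 65.4 and 66.7 CPM in the mutants, against 73.9 in WT. Singly they were mixed: SOX2 was lower in each mutant, PAX6 was at 34.0, 32.6 and 24.8 CPM, against 31.2, and NES at 17.5, 26.9 and 35.9, against 32.2. The 8 marks of the HEK293 line, which include neurofilaments, were also lower as a sum, at 1008, 1238 and 1272 CPM in the mutants, against 1489 in WT. Of the neurofilament genes in that list, NEFM was at 172, 185 and 192 CPM, against 345 in WT, and NEFL at 78.8, 103 and 105 CPM, against 140. Other genes of the list did not go 1 way: PAX2 was at 7.12, 5.65 and 6.38 CPM, against 5.78, and KRT18 at 53.0, 69.7 and 60.6, against 59.1. In bulk RNA a difference in the number of expressing cells and one in the RNA per cell cannot be told apart, and the part of such genes in the ratios of DPF1, DPF3 and ACTL6B was not tested.

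**Figure D3:**
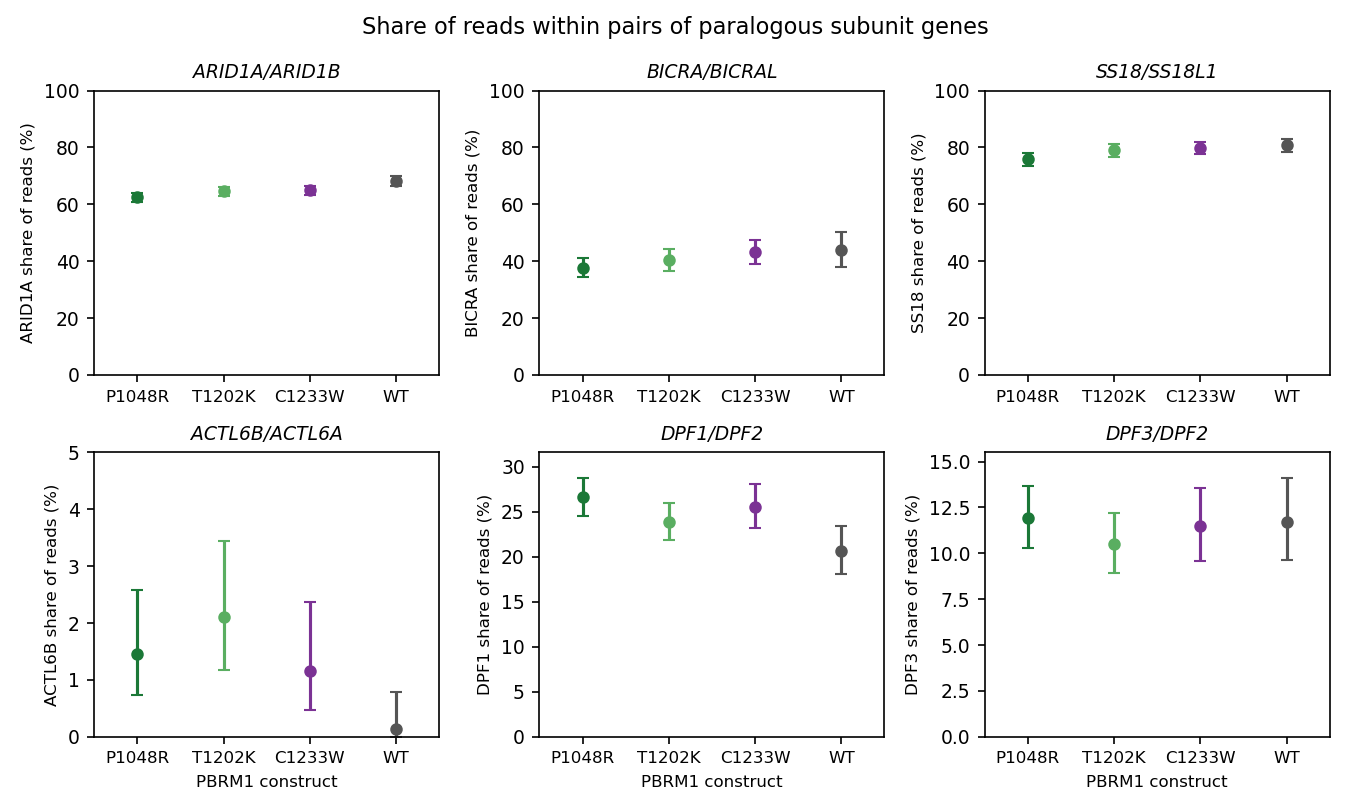
Share of reads that fell on the first of 2 paralogous genes, in percent, by PBRM1 construct, with exact 95% Clopper-Pearson intervals; the vertical scales differ and each starts at 0. The ARID1A share is highest in WT and the DPF1 share lowest in WT, while the BICRA and DPF3 shares overlap in all libraries.

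Between BICRA and BICRAL themselves, no difference from WT in the division of reads was detectable on the counts as deposited, but one appeared in P1048R and T1202K when the GC and length trend was removed. The BICRA share of the joint reads was 37.7% (34.3 to 41.3) for P1048R, 40.3% (36.4 to 44.2) for T1202K and 43.3% (39.0 to 47.6) for C1233W, against 44.0% (38.0 to 50.2) for WT. The difference of the log2 ratio from WT was −0.38 (−0.80 to 0.05) in P1048R, −0.22 (−0.65 to 0.21) in T1202K and −0.04 (−0.49 to 0.40) in C1233W. After removal of the GC and length trend it was −0.75 (−1.17 to −0.33) for P1048R, −0.76 (−1.19 to −0.33) for T1202K and −0.44 (−0.88 to 0.0041) for C1233W, so BICRA then stood lower relative to BICRAL in the first 2.

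Compared per length, as RPKM (CPM divided by the length in kilobases of the longest annotated transcript), SS18, ARID1A, BRD9 and DPF2 led in every library, between 16.5 and 33.1 RPKM. DPF1 followed at 16.8, 15.0 and 13.1 RPKM in P1048R, T1202K and C1233W, against 8.81 in WT, and ARID1B at 11.2, 10.6 and 9.29, against 9.67. In WT the order of DPF1 and ARID1B was thus the reverse of that in the mutants, but it rests on the length chosen: over all annotated exons ARID1B was at 2.72, 2.56 and 2.25 RPKM, against 2.34 in WT, below DPF1 at 8.24, 7.38 and 6.41, against 4.32. BICRAL, BICRA and DPF3 came next, from 2.20 to 6.22 RPKM on the longest transcript. In WT these 3 were nearly level, at 2.46, 2.20 and 2.34 RPKM, and their reads, 150, 118 and 99, do not separate neighbours in that order. ACTL6B was last everywhere, at 0.60, 0.86 and 0.44 RPKM, against 0.07 in WT.

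Between the mutants no member passed the size rule. The background was 1.24% of genes in T1202K against P1048R, 4.54% in C1233W against P1048R and 3.54% in C1233W against T1202K. In C1233W, 9 of the 10 genes had a ratio below 0 against P1048R, with a median over the 10 of −0.31 beside 0.00 for all genes, and SS18 alone was above it, at 0.25 (0.12 to 0.38). Against T1202K the median was −0.19 beside −0.02, with 8 below 0, BICRA being level at 0.01 and, on total counts, at −0.04. The 20 other SWI/SNF genes described below had medians of −0.09 against P1048R and −0.12 against T1202K. Above 0 against P1048R were 10% of the members, 30% of those 20 genes and 49.7% of all genes. Against T1202K these shares were 20%, 20% and 47.7%. By value alone, BICRAL, DPF1 and DPF3 ran in the same order, from P1048R through T1202K and C1233W down to WT, and SS18 in the opposite one. Not every step of this order was resolved. The interval of C1233W over T1202K reached 0 for BICRAL (−0.39 to 0.05), DPF1 (−0.42 to 0.01), DPF3 (−0.55 to 0.17) and SS18 (−0.02 to 0.23). That of T1202K over P1048R reached 0 for DPF1 (−0.35 to 0.04) and DPF3 (−0.48 to 0.17). The level of PBRM1 RNA was lowest in P1048R, then T1202K, WT and C1233W, and its part in these ratios was not tested.

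A list of 20 other SWI/SNF genes (core, PBAF-specific and neuronal-type subunits, PBRM1 left out) was read in the same way. It held 1 gene past the size rule in P1048R against WT and 0 in T1202K, in C1233W and in each pair of mutants. That gene was SMARCD3 (BAF60c), a tissue-restricted core subunit known from heart and brain, at 45.7, 40.8 and 40.3 CPM in P1048R, T1202K and C1233W, against 22.8 in WT. Its P1048R ratio of 1.0002 (0.77 to 1.24) sat on the threshold. That ratio was under it with thinned counts, with 2 added to each count and after removal of the GC and length trend. With DESeq2 size factors it was 1.04 and on total counts 1.22, where the T1202K ratio of SMARCD3 was 1.01. The medians of the 20 ratios were −0.14, −0.03 and −0.16 in P1048R, T1202K and C1233W. By the interval measure used above, 1 of the 20 was higher and 5 were lower in all 3 mutants, beside the 10.4% and 13.8% of all genes given above. On total counts 2 were higher (SMARCD3 and BCL7B) and 2 lower (SMARCC1 and BRD7), beside 19.0% and 5.91% of all genes. After removal of the GC and length trend 1 was higher and 8 were lower, beside 8.92% and 14.6% of all genes. PHF10, the subunit of PBAF related to the DPF proteins, was at 203, 199 and 178 CPM in the mutants, against 244 in WT.

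The genes most like BICRAL over the 4 libraries, by the Euclidean distance between centred log2 levels among 10296 genes averaging at least 10 CPM, were RP9P, a transcribed pseudogene, at 0.055, and SPATA24, at 0.056. SPATA24 was at 20.3, 16.6 and 15.4 CPM in P1048R, T1202K and C1233W, against 8.02 in WT. Within 0.2 of BICRAL lay 46 of these 10296 genes, so it did not hold such a profile alone. For ACTL6B the nearest were PHF21B, at 0.80, and DUSP8, at 0.85, and no gene lay within 0.2. With 4 libraries, these distances only describe the order and size of the levels.

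**Figure D4:**
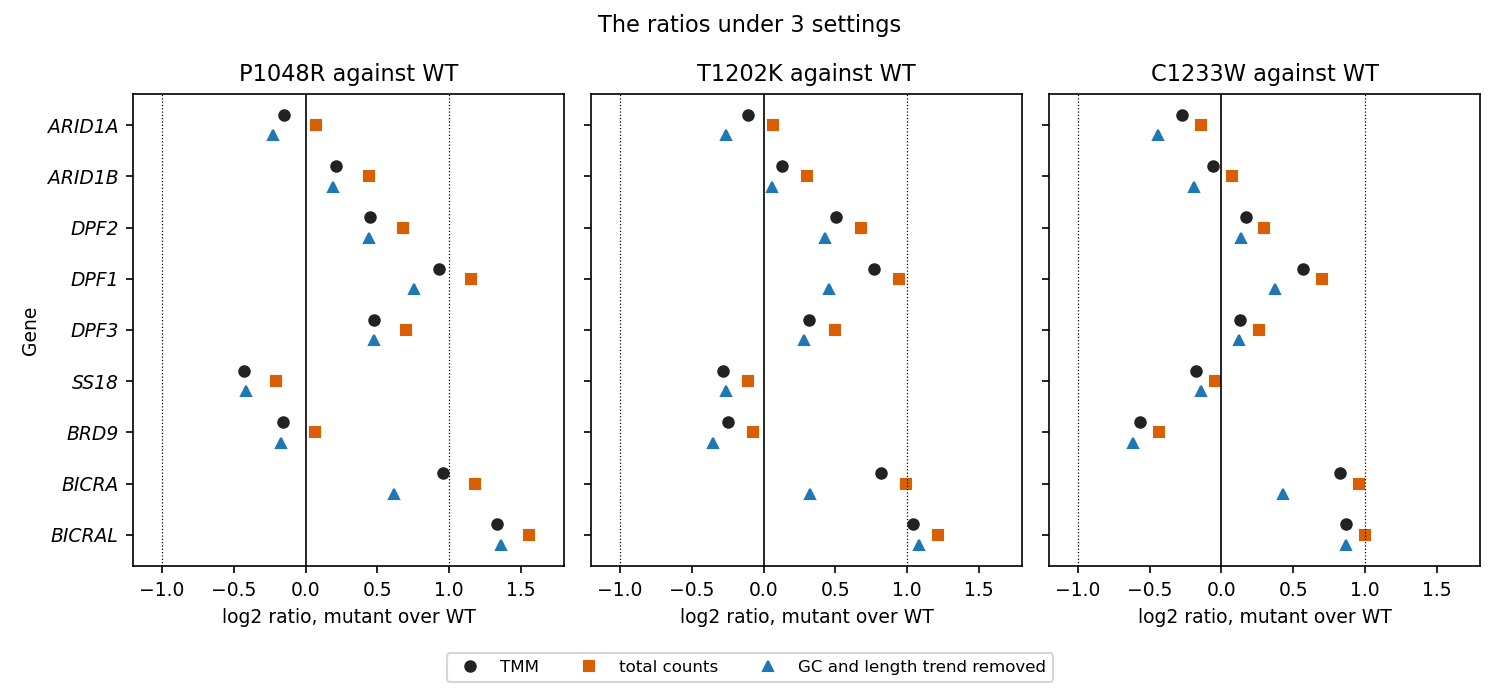
The log2 ratio over WT of the 9 genes other than ACTL6B under TMM scaling, total-count scaling and removal of the GC and length trend, in 1 panel per mutant, with dotted lines at 2-fold. BICRAL keeps its place when the trend is removed, BICRA and DPF1 move towards 0, and total counts shift every gene of a panel upward together.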

How the data were processed

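RNA sequencing of 4 HEK293T libraries, 1 per PBRM1 construct, was deposited as whole-number read counts per gene, with no normalization in the deposited table. The submitters' processing notes name hg38 as the build, and Trim Galore, HISAT2 and featureCounts as tools, with no version. The library kit was stranded per the labels' protocols; no source used here gives the strand setting of the counting, the annotation release or the treatment of multi-mapped reads. GENCODE 29 (GRCh38) matched all 58735 identifiers and gave positions, lengths and GC content.

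Library sizes were scaled with edgeR 4.0.16 (TMM; R 4.3.3). The factors were 1.07 for P1048R, 1.03 for T1202K, 0.999 for C1233W and 0.912 for WT. The size rule was applied to 16262 genes that reached 1 CPM in some library (2-fold or more, 95% Clopper-Pearson counting interval excluding 0). No p-value was made, because 1 library per construct leaves no spread to test against. On counts simulated with Poisson noise only for P1048R against WT, 200 of 200 genes changed 4-fold were recovered among 16262. The changed genes were drawn from those averaging at least 5 CPM, so recovery at lower levels or of changes near 2-fold was not tested. In the same counts 94 unchanged genes also passed the size rule through counting noise. The alternatives were DESeq2 1.42.0 size factors, total counts, PBRM1 removed before scaling, thinned counts, no filter, a minimum of 5 CPM, 2 added to each count, and removal of a smooth GC and length trend (mgcv 1.9.3). The members and lists were chosen with earlier results of these data known. Named genes were the 10 members, PBRM1, the partners SS18L1, ACTL6A and PHF10, any other listed SWI/SNF gene past the size rule, and the 2 most alike genes of each member past it. TRIP13, ZDHHC11 and the marker genes were named beside the members they bear on. BCL7B, SMARCC1 and BRD7 were named after their values were seen.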

Additional observations from a re-analysis of the deposited data

How the results depend on the processing

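No paired analysis was possible because each construct had 1 library, and for the same reason no library could be left out of a group. The count of members past the size rule was within 1.5 times that reported in the 3 comparisons with WT and in WT against all mutants, except as follows. On total counts it was 4 in P1048R (with DPF1 and BICRA added), 1 in C1233W (BICRAL), and 1 for WT apart from all 3 mutants (BICRAL, lower in WT), where 9.16%, 6.59% and 2.04% of all genes passed the same rules on that scaling. With a minimum of 5 CPM, which leaves ACTL6B untested, it was 1 in P1048R and 1 in T1202K, beside 4.95% and 2.94% of all genes. Members lower in all 3 mutants by interval numbered 1 with DESeq2 size factors (SS18) and 0 on total counts, beside 12.4% and 5.91% of all genes. The alternatives of this measure were chosen after seeing the data, as was the removal of the GC and length trend from the paralog ratios. Of the 20 other SWI/SNF genes, 1 was higher and 5 lower by interval, against 2 and 2 on total counts and 1 and 8 with the trend removed. The 4 members higher by interval became 3 after removal of the GC and length trend, where DPF2 no longer counted. With the trend removed 8.92% of all genes were higher by interval. Of 60 member ratios, 15 left their counting interval on total counts, where 6 changed sign, and 7 did with the trend removed. None did with DESeq2 size factors, PBRM1 removed, thinned counts or 2 added, though BICRA in C1233W against T1202K changed sign with thinned counts (0.01 to −0.03). Over all genes, a minimum of 5 CPM left 603 calls of 1219 in P1048R, 359 of 838 in T1202K and 330 of 878 in C1233W against WT, as well as 17 of 201 in T1202K against P1048R, 201 of 738 in C1233W against P1048R and 124 of 575 in C1233W against T1202K. Depth limits ACTL6B most, at 1 to 15 reads.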
